A study of Mus musculus with 12 samples.

Results

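The genes described here are 8 genes whose expression in skeletal muscle is tied to innervation: the transcriptional regulators Dach2, Hdac4 and Hdac9, the neural cell adhesion molecule gene Ncam1, the transcription factor genes Sox11 and Runx1, and the stress and growth-arrest genes Gadd45a and Cdkn1a. They were taken by gene symbol from the deposited gene count files. All 8 were found among the 26264 genes of each file, and all 8 were among the 13499 genes that passed the low-count filter and entered the tests.

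The RNA came from whole tibialis anterior of the mouse, a fast muscle of the lower leg, in 12 libraries of 4 per group. The gel group received 50 µl of a matrix gel at 6 mg/ml on the left tibialis anterior, and the PBS group received 50 µl of the vehicle, phosphate-buffered saline, on the right one. The other group is labelled only as uninjured controls. The series title concerns recovery from acute and chronic disuse injury of muscle, but the labels state neither the kind of injury, the time of sampling nor the strain, age and sex of the mice. Gel and PBS libraries of the same number came from the left and right legs of 1 animal, so that treatment and side of the body cannot be told apart. The uninjured libraries came from other animals, and injury and treatment therefore cannot be told apart in a comparison with them.

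In innervated fibres, electrical activity keeps the genes of the synapse and of the immature fibre at a low level outside the endplate. When the nerve is cut, the class IIa histone deacetylase HDAC4 accumulates and represses Dach2, the corepressor DACH2 no longer holds down the myogenic factor gene Myog, and myogenin raises acetylcholine receptor subunit genes and the atrophy ubiquitin ligase genes Trim63 and Fbxo32. HDAC9, which is also made as a short splice form without a deacetylase domain, is a repressor of MEF2-dependent transcription whose level in muscle depends on the nerve. NCAM spreads over the surface of denervated and regenerating fibres, RUNX1 is induced in denervated muscle and limits its wasting, GADD45A is induced downstream of ATF4 and HDAC4, and p21, encoded by Cdkn1a, arrests the cell cycle and is the classical target of p53.

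Promoter sequences from RefSeq (build GRCm38.p6, 250 bases before to 50 bases after each annotated start) were matched by symbol for 7 of the 8 genes, and 4 of these have 2 starts in that table. The following windows, written 5′ to 3′ on the strand of the gene, show the E-box CAGCTG, the form bound by myogenic factors, in capitals. Among the members it was found in the windows of Sox11, of both starts of Hdac9 and of start 1 of Cdkn1a, which is printed further on with another motif in capitals and was called in no comparison of all 12 libraries. The window of Chrna1, a textbook myogenin target, is set beside those of Sox11 and Hdac9.
Sox11, chr12:27342669-27342968, minus strand: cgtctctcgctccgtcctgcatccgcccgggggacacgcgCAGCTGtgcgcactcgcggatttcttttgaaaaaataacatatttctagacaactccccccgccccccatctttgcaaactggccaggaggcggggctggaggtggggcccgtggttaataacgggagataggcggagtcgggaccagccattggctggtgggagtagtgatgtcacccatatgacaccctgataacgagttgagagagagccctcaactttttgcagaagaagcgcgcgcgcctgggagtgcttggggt
Hdac9 start 1, chr12:34917046-34917345, minus strand: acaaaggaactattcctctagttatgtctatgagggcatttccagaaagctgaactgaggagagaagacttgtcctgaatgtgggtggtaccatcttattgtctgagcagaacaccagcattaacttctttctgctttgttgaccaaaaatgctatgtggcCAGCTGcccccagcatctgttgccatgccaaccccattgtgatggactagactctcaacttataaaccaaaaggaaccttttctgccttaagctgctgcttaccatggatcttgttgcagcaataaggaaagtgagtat
Hdac9 start 2, chr12:34528840-34529139, minus strand: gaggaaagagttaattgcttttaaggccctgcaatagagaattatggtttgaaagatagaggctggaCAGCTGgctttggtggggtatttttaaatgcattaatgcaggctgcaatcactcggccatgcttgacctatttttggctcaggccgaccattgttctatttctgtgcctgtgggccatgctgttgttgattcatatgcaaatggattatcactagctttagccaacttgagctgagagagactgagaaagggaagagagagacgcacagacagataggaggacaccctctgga
Chrna1, chr2:73580289-73580588, minus strand: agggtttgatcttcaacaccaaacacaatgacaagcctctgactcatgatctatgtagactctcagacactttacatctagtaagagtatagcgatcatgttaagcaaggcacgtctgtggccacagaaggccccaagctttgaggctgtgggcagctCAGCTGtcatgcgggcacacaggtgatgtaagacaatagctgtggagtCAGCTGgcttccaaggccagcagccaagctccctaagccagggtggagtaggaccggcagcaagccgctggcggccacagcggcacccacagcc
The window of Chrna1 holds 2 copies and each of the others 1. Of 32851 RefSeq promoter windows of this length, 16.3% hold CAGCTG, searched on both strands, so a match is common and is a description only. The wider E-box CANNTG, which includes it, is held by 72.3% of the windows. The windows of Hdac4, Gadd45a, Dach2 and Runx1 do not hold CAGCTG.

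A second pair of windows is shown for Runx1 and Cdkn1a, which were among the genes high together in 1 PBS library, at the starts that hold a match. In the window of Runx1 start 1 the capitals mark the RUNX motif TGTGGT on either strand, present 2 times and held by 16.8% of all windows. In the window of Cdkn1a start 1 they mark matches to the p53 decamer motif, present 2 times and held by 8.36% of all windows.
Runx1 start 1, chr16:92826025-92826324, minus strand: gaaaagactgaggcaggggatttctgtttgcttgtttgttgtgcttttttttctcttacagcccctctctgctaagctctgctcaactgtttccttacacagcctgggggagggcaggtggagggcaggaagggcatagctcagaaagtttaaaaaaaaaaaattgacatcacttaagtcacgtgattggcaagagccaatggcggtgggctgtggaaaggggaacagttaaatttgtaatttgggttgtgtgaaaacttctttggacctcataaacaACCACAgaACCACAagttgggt
Cdkn1a start 1, chr17:29090729-29091028, plus strand: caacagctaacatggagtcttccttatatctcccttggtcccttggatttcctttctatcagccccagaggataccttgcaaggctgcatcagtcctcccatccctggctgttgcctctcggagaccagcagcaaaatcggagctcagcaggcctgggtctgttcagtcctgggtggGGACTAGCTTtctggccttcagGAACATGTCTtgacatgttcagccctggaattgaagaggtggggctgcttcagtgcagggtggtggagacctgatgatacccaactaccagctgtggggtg
Gadd45a and start 1 of Hdac9 each held 1 match to the p53 decamer, and none of the members' windows held the MEF2 motif, which 3.19% of all windows hold. Start 2 of Runx1 held no RUNX match and start 2 of Cdkn1a no p53 decamer match. Hdac4 and Sox11, also high in that PBS library, held neither motif. Start 2 of Dach2, which was low there, held 1 RUNX match.

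Library totals ran from 15626086 to 22182483 counts. In every pair of replicates the counts differed by more than sampling noise, with a chi-square per gene of 6.50 or higher over genes with at least 20 counts in the pair. Fast-fibre markers were detected in every library, with a summed level of 154900 to 291800 CPM (counts scaled to library size and by trimmed mean of M-values). Gel 3 stood apart from the other gel libraries over all genes, and PBS 4 from the other PBS libraries for genes described here. Principal component analysis of log2 CPM put 50.7% of the variance on its leading axis, along which gel 1, gel 2 and gel 4 lay between -91.4 and -67.4, gel 3 lay at 5.39, and the PBS and uninjured libraries lay between 17.2 and 46.5. PBS 4 lay at 23.3 on this axis, among the other PBS libraries. It was the highest PBS library for 5 of the 8 genes described here. It stands out through the values of these same genes, so calls made without it are a description. Each call among the 8 that changed without PBS 4 or gel 3 is given in both ways.

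Of the 8 genes, Dach2, Hdac9 and Sox11 rose in PBS-treated over uninjured muscle, Ncam1 and Sox11 rose in gel-treated over PBS-treated muscle, and Ncam1, Sox11 and Hdac9 rose in gel-treated over uninjured muscle. None fell in any of the 3 comparisons in the main edgeR fit, of all 12 libraries as deposited and without an animal block. In gel under PBS muscle 2 genes, Dach2 and Hdac4, were lower at an unadjusted p below 0.05 in that fit. Of these, Dach2 was called lower by DESeq2 and by limma voom. It was also called lower by edgeR with the animal as a block (log2 -1.28, adjusted p = 0.0403) and by edgeR on halved counts. Tests were edgeR quasi-likelihood tests with Benjamini-Hochberg adjustment over all 13499 genes, a gene counting as changed at an adjusted p below 0.05. The 3 of 8 that rose in PBS over uninjured muscle stand beside 2.79% of all tested genes called higher in that comparison and 3.39% called lower. The 2 of 8 in gel over PBS stand beside 16.6% higher and 13.2% lower, and the 3 of 8 in gel over uninjured beside 14.5% higher and 11.1% lower. Each count includes Sox11, which entered the test only through its gel and PBS libraries and whose calls are a description. The count in PBS over uninjured also includes Dach2, which reached the filter level in 2 uninjured libraries and in all PBS and gel libraries. Its call there likewise rests on a gene that passed the filter through treated libraries, and is a description. In each comparison the genes called were also those whose libraries did not overlap between the groups, which was so in the higher direction for 10.4% of all tested genes in PBS over uninjured, 10.4% in gel over PBS and 11.3% in gel over uninjured. The shares in the lower direction, in which no member stood clear, were 10.2%, 9.74% and 11.7%. The median log2 fold change of the 8 genes was 0.55, 0.06 and 0.91 in these comparisons, and that of all tested genes 0.00, 0.04 and 0.03. The PBS libraries enter all but the last comparison and the uninjured libraries all but the second, so the lists of calls are not independent of each other. In whole muscle, a lower level of a transcript in each cell and fewer cells that carry it cannot be told apart.

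**Figure D1:**
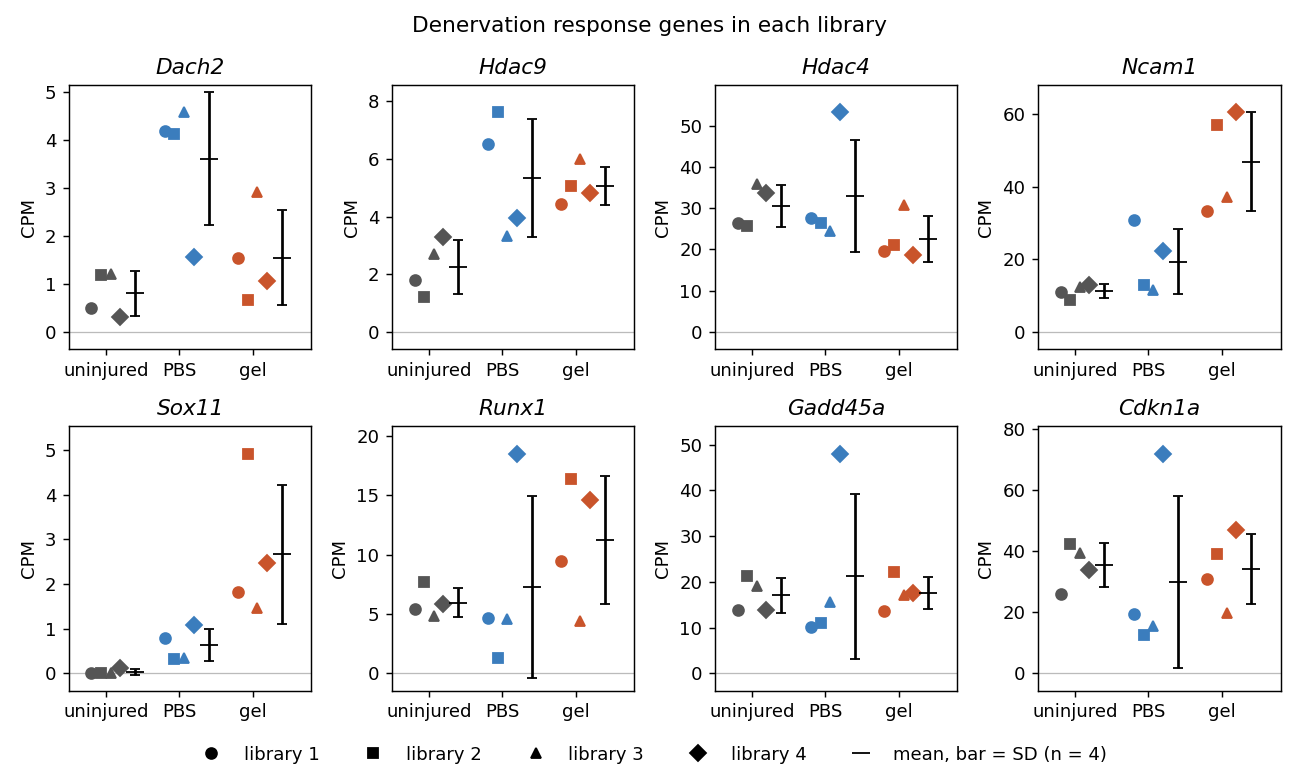
CPM of each of the 8 genes in every library (vertical axis, CPM; points are libraries, the bar is the group mean and the error bar the SD, n = 4). Sox11 and Ncam1 have all gel libraries above all PBS libraries, and PBS 4 lies above the other PBS libraries for Hdac4, Runx1, Gadd45a, Cdkn1a and Sox11 and below them for Dach2.

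Dach2, the dachshund-family corepressor of Myog, was scarce in uninjured muscle, with 0.512, 1.20, 1.22 and 0.317 CPM in uninjured 1 to 4. In the PBS libraries it measured 4.20, 4.13, 4.58 and 1.56 CPM, and in the gel libraries 1.54, 0.662, 2.93 and 1.06 CPM. Every PBS library lay above every uninjured one, and the gel libraries spanned both groups. Behind these values stand 52 counts in the uninjured, 267 in the PBS and 118 in the gel libraries. The low-count filter asks for 0.537 CPM in 4 libraries. Of the uninjured libraries 2 reached it, so Dach2 was tested only through its PBS and gel libraries.

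Dach2 rose in PBS over uninjured muscle by 2.16 ± 0.52 on the log2 scale (SE; 95% interval 1.05 to 3.26; adjusted p = 0.0228). The adjusted p passed 0.05 when any of PBS 1, PBS 2, PBS 3, uninjured 1 or uninjured 4 was left out, reaching 0.0821 without uninjured 4, and was 0.0508 with limma voom, while the log2 fold change stayed between 1.89 and 2.41. Gel minus PBS was -1.25 ± 0.49 (interval -2.28 to -0.21; adjusted p = 0.065) and missed the threshold. With the animal as a block, over the 8 paired libraries, Dach2 was -1.28 ± 0.40 with an adjusted p of 0.0403, without PBS 4 it was -1.52 (adjusted p = 0.0333) and without gel 3 it was -1.76 (adjusted p = 0.00585). Gel minus uninjured was 0.91 ± 0.53 (adjusted p = 0.217), and 0.40 without gel 3 (adjusted p = 0.564). The order of the group means, 0.811 ± 0.466 CPM in uninjured, 1.55 ± 0.990 in gel and 3.62 ± 1.39 in PBS muscle (SD, n = 4), therefore has the uninjured and gel groups as neighbours that did not differ beyond their spread.

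Hdac9, the nerve-dependent class IIa histone deacetylase, measured 1.82, 1.20, 2.70 and 3.29 CPM in uninjured 1 to 4. The PBS libraries held 6.52, 7.61, 3.32 and 3.96 CPM, and the gel libraries 4.44, 5.06, 5.98 and 4.81 CPM. All 8 treated libraries lay above all 4 uninjured ones, PBS 3 by the narrowest margin. The counts are per gene and do not separate the full-length form from the short one.

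Hdac9 rose in PBS over uninjured muscle by 1.25 ± 0.32 on the log2 scale (adjusted p = 0.0307) and in gel over uninjured muscle by 1.17 ± 0.32 (adjusted p = 0.0152). Gel minus PBS was -0.08 ± 0.31, with an interval of -0.73 to 0.57, and was not called (adjusted p = 0.866). The PBS rise lost its call with limma voom (adjusted p = 0.0513) and without PBS 1 (adjusted p = 0.0953), PBS 2 (0.116), uninjured 1 (0.0907), uninjured 2 (0.0973) or uninjured 3 (0.0644), and the gel rise without uninjured 2 (0.0510). The group means were 2.25 ± 0.928 CPM in uninjured, 5.35 ± 2.04 in PBS and 5.07 ± 0.658 in gel muscle (SD, n = 4), with PBS and gel not distinguishable.

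Hdac4, which in denervated muscle represses Dach2, passed the test in none of the 3 comparisons. Its levels were 26.4, 25.8, 35.9 and 33.6 CPM in the uninjured libraries, 27.6, 26.3, 24.4 and 53.2 CPM in the PBS libraries, and 19.7, 21.1, 30.8 and 18.6 CPM in the gel libraries. Of the PBS libraries only PBS 4 exceeded the uninjured range, and 3 of the 4 gel libraries lay below the lowest library of either other group. PBS minus uninjured was 0.11 ± 0.24 on the log2 scale (interval -0.41 to 0.63; adjusted p = 0.837) and -0.22 without PBS 4. Gel minus PBS was -0.55 ± 0.24 (interval -1.07 to -0.02; adjusted p = 0.105), -0.74 without gel 3 (adjusted p = 0.0249) and -0.24 without PBS 4 (adjusted p = 0.343). Gel minus uninjured was -0.43 ± 0.24 (adjusted p = 0.208). The means of 30.4 ± 5.09 CPM in uninjured, 32.9 ± 13.6 in PBS and 22.5 ± 5.58 in gel muscle (SD, n = 4) thus have no neighbours that the test set apart.

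Beside these regulators, 21 further genes of the HDAC, MEF2 and myogenin axis were tested. Their counts stand beside the shares of all tested genes called higher and lower. These shares were 2.79% and 3.39% in PBS over uninjured, 16.6% and 13.2% in gel over PBS, and 14.5% and 11.1% in gel over uninjured muscle. In PBS over uninjured muscle 2 of the 21 rose and none fell, at a median log2 fold change of 0.09. With DESeq2 and without gel 3, 4 rose, and without PBS 4, 1 rose and 1 fell. Among them was Six4, which encodes a homeodomain factor that acts at the Myog promoter and rose from 8.87 to 17.6 CPM (log2 0.98 ± 0.18, adjusted p = 0.00546).

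In gel over PBS muscle 1 of the 21 axis genes rose and 7 fell, at a median of -0.33; 11 fell with DESeq2 and without gel 3, 9 with limma voom and 6 without PBS 4. Myog, the target of DACH2 repression, was the gene that rose. It measured 5.57, 3.24, 2.57 and 2.85 CPM in the uninjured libraries, 6.91, 6.09, 5.38 and 18.7 CPM in the PBS libraries, and 27.2, 30.6, 18.2 and 48.8 CPM in the gel libraries. Its lowest gel library, gel 3, lay just under PBS 4 and above all others. Myog rose in gel over PBS muscle by 1.76 ± 0.43 on the log2 scale (adjusted p = 0.0117) and over uninjured muscle by 3.13 ± 0.47 (adjusted p = 0.00104), and PBS minus uninjured was 1.37 ± 0.46 (adjusted p = 0.103).

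The genes that fell in gel-treated muscle included those for the calcium/calmodulin-dependent kinase subunits Camk2g (log2 -0.53 ± 0.13, adjusted p = 0.00715) and Camk2a (-0.66 ± 0.18, adjusted p = 0.0118) and for the transcription factor Mef2a (-0.43 ± 0.12, adjusted p = 0.0134). The other fallers were Eya1, Six4, Ncor1 and Ctbp1, the last encoding a corepressor, of which Six4 (adjusted p = 0.051) and Ctbp1 (0.0676) were not called without PBS 4. In gel over uninjured muscle 2 of the 21 rose and 1 fell, at a median of -0.21, or 5 fell with DESeq2, 3 with limma voom and 8 without gel 3: beside Myog, Camk2d rose by 0.59 ± 0.16 (adjusted p = 0.0125), and Hdac5, the close relative of Hdac4, fell by 0.50 ± 0.13 (adjusted p = 0.0108).

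Ncam1, the adhesion molecule gene of denervated and regenerating fibres, measured 10.9, 8.82, 12.5 and 12.9 CPM in the uninjured libraries. The PBS libraries held 30.7, 12.8, 11.7 and 22.2 CPM, and the gel libraries 33.2, 56.8, 37.1 and 60.4 CPM. Every gel library lay above every PBS and uninjured library, while PBS 2 and PBS 3 lay within the uninjured range and PBS 1 and PBS 4 above it.

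Ncam1 rose in gel over PBS muscle by 1.28 ± 0.30 on the log2 scale, a fold of 2.42 (interval 0.63 to 1.92; adjusted p = 0.00843), and over uninjured muscle by 2.06 ± 0.31 (interval 1.39 to 2.73; adjusted p = 0.000876). Both calls held in each of the 12 fits that left out 1 library, at log2 1.09 to 1.58 and 1.88 to 2.19. PBS minus uninjured was 0.78 ± 0.30 (interval 0.12 to 1.44) and missed the threshold (adjusted p = 0.151). The means were 11.3 ± 1.86 CPM in uninjured, 19.3 ± 8.91 in PBS and 46.9 ± 13.7 in gel muscle (SD, n = 4).

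Sox11 encodes a SoxC transcription factor of developing tissues. It had 0, 0, 0 and 2 counts in uninjured 1 to 4, 16, 6, 6 and 18 counts in the PBS libraries, and 32, 104, 24 and 68 counts in the gel libraries. In CPM the PBS libraries measured 0.790, 0.326, 0.344 and 1.08 and the gel libraries 1.82, 4.92, 1.47 and 2.48. The 3 groups did not overlap, with uninjured lowest and gel highest. Sox11 passed the low-count filter, which asks for 0.537 CPM in 4 libraries, through its 4 gel and 2 PBS libraries, so the gene could be tested only because it was high there.

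Sox11 rose in gel over PBS muscle by 2.07 ± 0.56 on the log2 scale, a fold of 4.20 (interval 0.89 to 3.25; adjusted p = 0.0128). Without gel 2, the library with the highest level, the difference was 1.58 with an adjusted p of 0.0668. Against uninjured muscle the ratio of summed counts, each divided by the summed scaled library sizes of its group, was 20.5 for PBS and 89.6 for gel. The uninjured sum of 2 counts leaves wide counting intervals of 5.36 to 174 and of 24.5 to 744. Low counts were mostly even numbers, as when both reads of a pair are counted, and on halved counts the intervals were 3.33 to 844 and 15.8 to 3570. They cover counting error only. Adjusted p was 0.0149 for PBS and 0.000222 for gel over uninjured muscle, and the PBS call was lost without uninjured 2 (0.0541) or uninjured 3 (0.0539) and with limma voom (0.0538).

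Macrophage transcripts moved with these gel results. Of 15 macrophage markers 14 rose and none fell in gel over PBS muscle (9 with limma voom), at a median log2 fold change of 4.39, and their summed level was 102.7 to 1866 CPM in gel, 30.1 to 63.3 in PBS and 41.4 to 84.7 in uninjured libraries. No marker was at 0 in every PBS or uninjured library, and Adgre1 and Fcgr1 were at 0 in at least 1 library of each of these groups, Msr1 in at least 1 PBS library. Gel 3 held the lowest gel sum of 102.7 CPM, which lay above that of every PBS and uninjured library. With 37.1 CPM of Ncam1 and 1.47 CPM of Sox11, gel 3 also lay above every PBS library for both genes. Proliferation genes also moved, 7 of 9 tested rising and none falling, of which limma voom called 3. Without PBS 4 or without gel 3, 9 of the 11 listed genes rose. Without PBS 4 these included Ccnb1 and Bub1, but not Pcna (log2 0.26, adjusted p = 0.42) or Aurka (-0.18, adjusted p = 0.67). Ccnb1 and Bub1 failed the low-count filter over all 12 libraries. They entered the fit without PBS 4 because a smaller group lowers the number of libraries the filter asks for, and only through gel libraries. Their calls are a description, and the 9 of that fit are no stronger result than the 7 of 9 tested. Of 10 Schwann cell markers, which bear on Ncam1 because Schwann cells carry NCAM, only Egr2 rose, and the summed level overlapped between PBS (22.0 to 170.9 CPM) and gel (29.3 to 160.7 CPM). Of 10 satellite cell and myoblast markers 2 rose and 1 fell. Nearly all of their summed level was Des, which mature fibres also carry, at a mean of 6373 CPM in PBS and 6374 in gel muscle. The mean log2 level of these markers relative to uninjured muscle, in which each gene has equal weight, was -0.34 to 0.20 in PBS and 0.10 to 0.42 in gel libraries. Of 12 fast-fibre markers 1 rose and 4 fell in gel over PBS muscle (median -0.37), or 7 fell with DESeq2 or without gel 3, and 6 fell in gel over uninjured muscle (median -0.45). Their mean log2 level relative to uninjured muscle was -0.27 to 0.10 in PBS and -0.65 to -0.23 in gel libraries. The part of these cell and fibre types in the Ncam1 and Sox11 results was not tested.

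**Figure D2:**
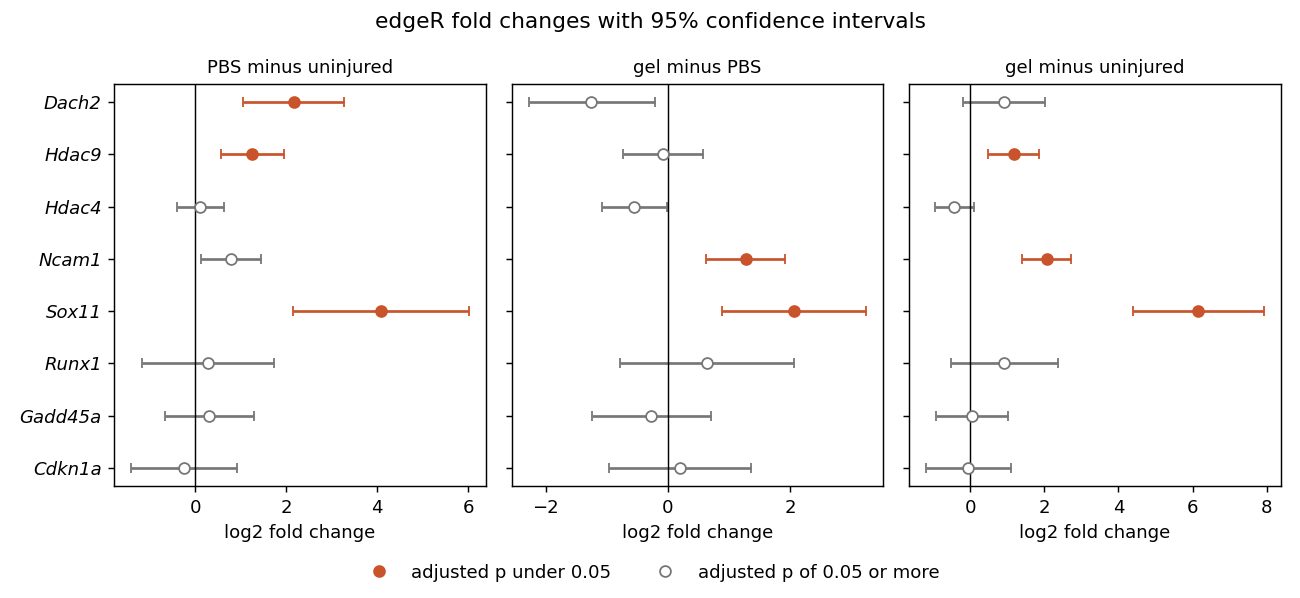
Log2 fold change of each of the 8 genes in the 3 comparisons (horizontal axis, log2; points are edgeR estimates, bars 95% intervals). Ncam1 and Sox11 lie to the right of 0 in gel minus PBS, at 1.28 and 2.07, while the intervals of Hdac9, Runx1, Gadd45a and Cdkn1a span 0.

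Runx1, the Runt-family factor induced by denervation, passed the test in none of the comparisons. It measured 5.46, 7.68, 4.87 and 5.83 CPM in the uninjured libraries, 4.64, 1.31, 4.58 and 18.5 CPM in the PBS libraries, and 9.45, 16.4, 4.40 and 14.6 CPM in the gel libraries. PBS 1 to 3 all lay below the lowest uninjured library and PBS 4 above every other library of the study, which gave the PBS group a mean of 7.25 ± 7.65 CPM (SD, n = 4), against 5.96 ± 1.21 in uninjured and 11.2 ± 5.40 in gel muscle. Gel minus PBS was 0.64 ± 0.65 on the log2 scale (interval -0.79 to 2.07; adjusted p = 0.487). Without PBS 4 it was 1.64 with an adjusted p of 0.0242, and PBS minus uninjured turned from 0.28 ± 0.66 (adjusted p = 0.856) to -0.76. PBS 4 was singled out by values such as these, so the fits without it are a description. Gel minus uninjured was 0.92 ± 0.65 (adjusted p = 0.333). Gel 3, with the lowest macrophage sum of the gel libraries (102.7 CPM, above every PBS and uninjured library), held 4.40 CPM of Runx1, below every uninjured library. The other gel libraries, with macrophage sums of 1036 to 1866 CPM, held 9.45 CPM or more. PBS 4, with the highest Runx1 level of 18.5 CPM, had a macrophage sum of 60.6 CPM. RUNX1 is also made by blood-lineage cells, and their part in the Runx1 values was not tested.

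Of all tested genes 2.79% were called higher in PBS over uninjured, 16.6% in gel over PBS and 14.5% in gel over uninjured muscle. Beside these shares stands the fixed list of relatives and partners of Runx1, Sox11 and Ncam1, with 7 of 8 genes tested. In PBS over uninjured muscle 0 passed in edgeR, DESeq2 or limma voom, with 2 higher at an unadjusted p below 0.05 in edgeR (median 0.45), 2 rose in gel over PBS (median 0.69; 1 with limma voom and 3 without gel 3) and 4 rose in gel over uninjured (median 1.00), and none fell. Runx2, the bone-lineage relative of Runx1, rose from 1.02 CPM in PBS to 5.61 in gel muscle (log2 2.46 ± 0.39, adjusted p = 0.00146), and Sox4, the SoxC relative of Sox11, rose from 7.88 to 12.7 CPM (log2 0.69 ± 0.23, adjusted p = 0.0353). Over uninjured muscle both rose as well, with St8sia2, a polysialyltransferase that modifies NCAM (log2 2.32 ± 0.60, adjusted p = 0.0108), and Runx3 (log2 2.72 ± 0.84, adjusted p = 0.026). Runx3 summed to 12 counts in uninjured and 108 in gel libraries. Its highest uninjured library, at 0.380 CPM, lay under the 0.537 CPM of the filter. Runx3 was thus tested only through treated libraries, and its call is a description. St8sia2 was low too, with 30 counts in uninjured and 208 in gel libraries.

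Gadd45a, a growth-arrest and DNA-damage gene induced in denervated muscle, measured 13.9, 21.4, 19.1 and 13.9 CPM in the uninjured libraries. The PBS libraries held 10.2, 11.0, 15.7 and 48.0 CPM, and the gel libraries 13.6, 22.1, 17.2 and 17.5 CPM. Leaving PBS 4 aside, every library lay between 10.2 and 22.1 CPM. None of the comparisons was called: PBS minus uninjured was 0.31 ± 0.44 (adjusted p = 0.742), gel minus PBS -0.27 ± 0.44 (interval -1.24 to 0.71; adjusted p = 0.686) and gel minus uninjured 0.05 ± 0.44 (adjusted p = 0.954). Without PBS 4 the first became -0.47 and the second 0.49. The group means were 17.1 ± 3.76 CPM in uninjured, 21.2 ± 18.0 in PBS and 17.6 ± 3.46 in gel muscle (SD, n = 4).

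Cdkn1a, which encodes the cell-cycle inhibitor p21, behaved in the same way in the PBS group. Its levels were 25.9, 42.2, 39.3 and 33.7 CPM in the uninjured libraries, 19.4, 12.5, 15.5 and 71.8 CPM in the PBS libraries, and 30.8, 39.0, 19.8 and 46.8 CPM in the gel libraries. PBS 1 to 3 lay below every uninjured and gel library, and PBS 4 above every library. PBS minus uninjured was -0.25 ± 0.52 (interval -1.41 to 0.92; adjusted p = 0.836), and -1.16 without PBS 4, past the threshold (adjusted p = 0.0264). Gel minus PBS was 0.20 ± 0.52 (adjusted p = 0.802), and 1.08 without PBS 4 (adjusted p = 0.0127). The values that mark out PBS 4 include those of Cdkn1a, so both results without it are a description. Gel minus uninjured was -0.05 ± 0.52 (interval -1.20 to 1.11; adjusted p = 0.963). The mean of the PBS group, 29.8 ± 28.1 CPM, thus stands for no library in it, beside 35.3 ± 7.18 in uninjured and 34.1 ± 11.6 in gel muscle (SD, n = 4).

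**Figure D3:**
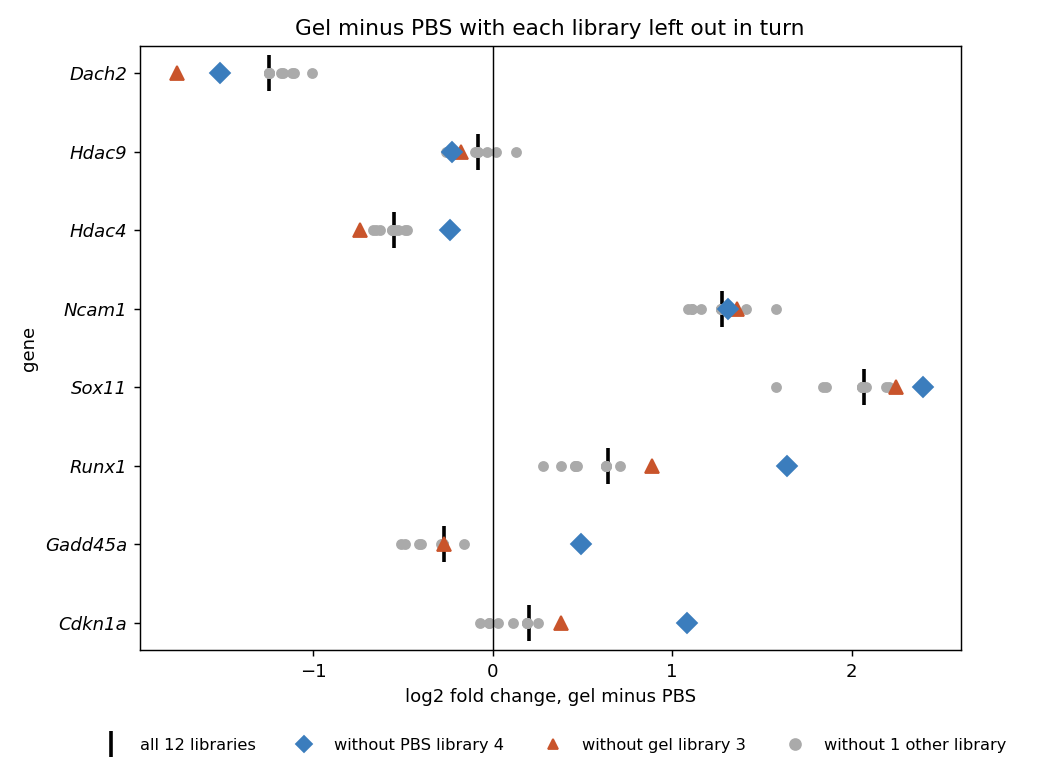
Log2 fold change of gel minus PBS for each of the 8 genes (horizontal axis) in the fit of all 12 libraries (vertical tick) and in the fits without PBS 4 (diamond), gel 3 (triangle) or 1 other library (circles). The fits without PBS 4 lie apart for Runx1 (1.64), Cdkn1a (1.08) and Gadd45a (0.49), whereas Ncam1 stays between 1.09 and 1.58.

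Of 21 further genes of the ATF4-GADD45 and p53-p21 arm, 1 fell and none rose in PBS over uninjured muscle (median 0.07). In gel over PBS 5 rose and 4 fell (median 0.00), and in gel over uninjured 4 rose and 4 fell (median -0.09, and 6 and 7 without gel 3). Of all tested genes 2.79% were called higher and 3.39% lower in PBS over uninjured muscle. The shares were 16.6% and 13.2% in gel over PBS, near those of the list (23.8% and 19.0%), and 14.5% and 11.1% in gel over uninjured. The PBS faller was Gadd45g, a paralog of Gadd45a, at 88.8 CPM in uninjured and 37.0 in PBS muscle (log2 -1.26 ± 0.26, adjusted p = 0.0127). In gel over PBS muscle the p53 targets Aen (log2 -0.91 ± 0.11, adjusted p = 0.000813), Ccng1 (-0.79 ± 0.18, adjusted p = 0.00552) and Mdm2 fell together with Map3k4 (-0.77 ± 0.16, adjusted p = 0.0039), the kinase that GADD45 proteins activate. Other p53 targets did not fall: Bax rose from 10.2 to 18.7 CPM, and Cdkn1a itself was not called. Cdkn1c, a relative of Cdkn1a, rose from 27.9 to 85.5 CPM (log2 1.62 ± 0.25, adjusted p = 0.00172). Asns, Trp53 and Gadd45g rose too, Gadd45g not without PBS 4 (adjusted p = 0.0917) or gel 3 (0.0825). In gel over uninjured muscle Aen (-0.74 ± 0.11, adjusted p = 0.000549) and Atf4 (-0.56 ± 0.12, adjusted p = 0.00319) fell, with Mdm2 and Map3k4. Cdkn1c (1.48 ± 0.25, adjusted p = 0.00127), Trp53 (0.62 ± 0.15, adjusted p = 0.00855), the p53 target Bbc3 and Gadd45b rose.

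The effectors of denervation, the receptor subunits, embryonic contractile proteins and ubiquitin ligases that lie downstream, moved in both directions. Of the 19 of 20 list genes tested, 1 rose and 1 fell in PBS over uninjured muscle (median 0.24), 5 rose and 4 fell in gel over PBS (median 0.20; 8 and 2 without PBS 4), and 9 rose and 2 fell in gel over uninjured (median 0.92). Beside the 5 and 4 of 19 stand 16.6% of all tested genes called higher and 13.2% called lower in gel over PBS. The shares were 2.79% and 3.39% in PBS over uninjured, and 14.5% and 11.1% in gel over uninjured muscle. In gel over PBS muscle Tnnt2 (log2 1.95 ± 0.35, adjusted p = 0.00317), Myh8 (2.77 ± 0.51, adjusted p = 0.0039) and Myh3 (2.48 ± 0.46, adjusted p = 0.00409), which encode the troponin and myosins of the developing fibre, rose with the receptor subunit genes Chrnb1 and Chrne. Fbxo32, Fbxo30, Trim63 and Cdh15 fell, Cdh15 not without PBS 4 (adjusted p = 0.0729). Over uninjured muscle Tnnt2 rose by 2.45 ± 0.37 (adjusted p = 0.000871), with Myh3, Myh8, Sln and the receptor subunit genes Chrnb1 and Chrnd among the others that rose.

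Trim63 and Fbxo32 are ubiquitin ligase genes that denervation raises; Trim63 fell in both treated groups, and Fbxo32 in gel-treated muscle. Trim63, encoding MuRF1, measured 129.4 to 212.5 CPM in uninjured, 64.9 to 106.8 in PBS and 50.2 to 68.6 in gel libraries. It fell in PBS under uninjured muscle (log2 -1.05 ± 0.18, adjusted p = 0.00348), in gel under PBS (-0.58 ± 0.18, adjusted p = 0.0252) and in gel under uninjured muscle (-1.64 ± 0.19, adjusted p = 6.47e-05). Without PBS 4 the difference of gel from PBS was -0.48 and was not called (adjusted p = 0.0743). Fbxo32, encoding atrogin-1, measured 127.0 to 230.2 CPM in uninjured, 107.9 to 184.1 in PBS and 53.1 to 92.6 in gel libraries. Fbxo32 was not called in PBS against uninjured muscle (-0.35 ± 0.22, adjusted p = 0.383), and fell in gel under PBS (-1.15 ± 0.22, adjusted p = 0.00325) and under uninjured muscle (-1.50 ± 0.23, adjusted p = 0.00059).

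The receptor subunit genes Chrna1 and Chrng, which denervation spreads along the fibre, had their highest PBS level in PBS 4. Chrna1 measured 9.44, 7.20, 11.4 and 13.3 CPM in the uninjured libraries, 23.3, 22.8, 15.2 and 78.0 CPM in the PBS libraries and 16.1, 30.2, 35.1 and 52.4 CPM in the gel libraries. Every PBS library lay above every uninjured one. The difference of 1.75 ± 0.54 missed the threshold (adjusted p = 0.0831), as did 0.98 without PBS 4 (adjusted p = 0.127). Gel over uninjured muscle passed it (1.70 ± 0.54, adjusted p = 0.0408), but not without gel 3 (1.67, adjusted p = 0.065), and gel minus PBS was -0.05 ± 0.51 (adjusted p = 0.95). Chrng, the fetal subunit, measured 0 to 0.840 CPM in uninjured libraries, 0.544 to 0.987 in PBS 1 to 3, 5.88 in PBS 4 and 2.05 to 8.99 in gel libraries. The uninjured libraries did not all reach the 0.537 CPM of the filter. Chrng thus passed the filter through treated libraries, and its call over uninjured muscle is a description. It rose in gel over uninjured muscle (3.42 ± 0.90, adjusted p = 0.0164), and was not called in PBS over uninjured (2.14 ± 0.91, adjusted p = 0.186) or gel over PBS (1.28 ± 0.78, adjusted p = 0.234; without PBS 4 2.62, adjusted p = 0.0131). Lrp4, the agrin receptor gene, rose in both treated groups over uninjured muscle, by 0.89 ± 0.18 in PBS (adjusted p = 0.00783) and by 1.10 ± 0.18 in gel (adjusted p = 0.000681).

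**Figure D4:**
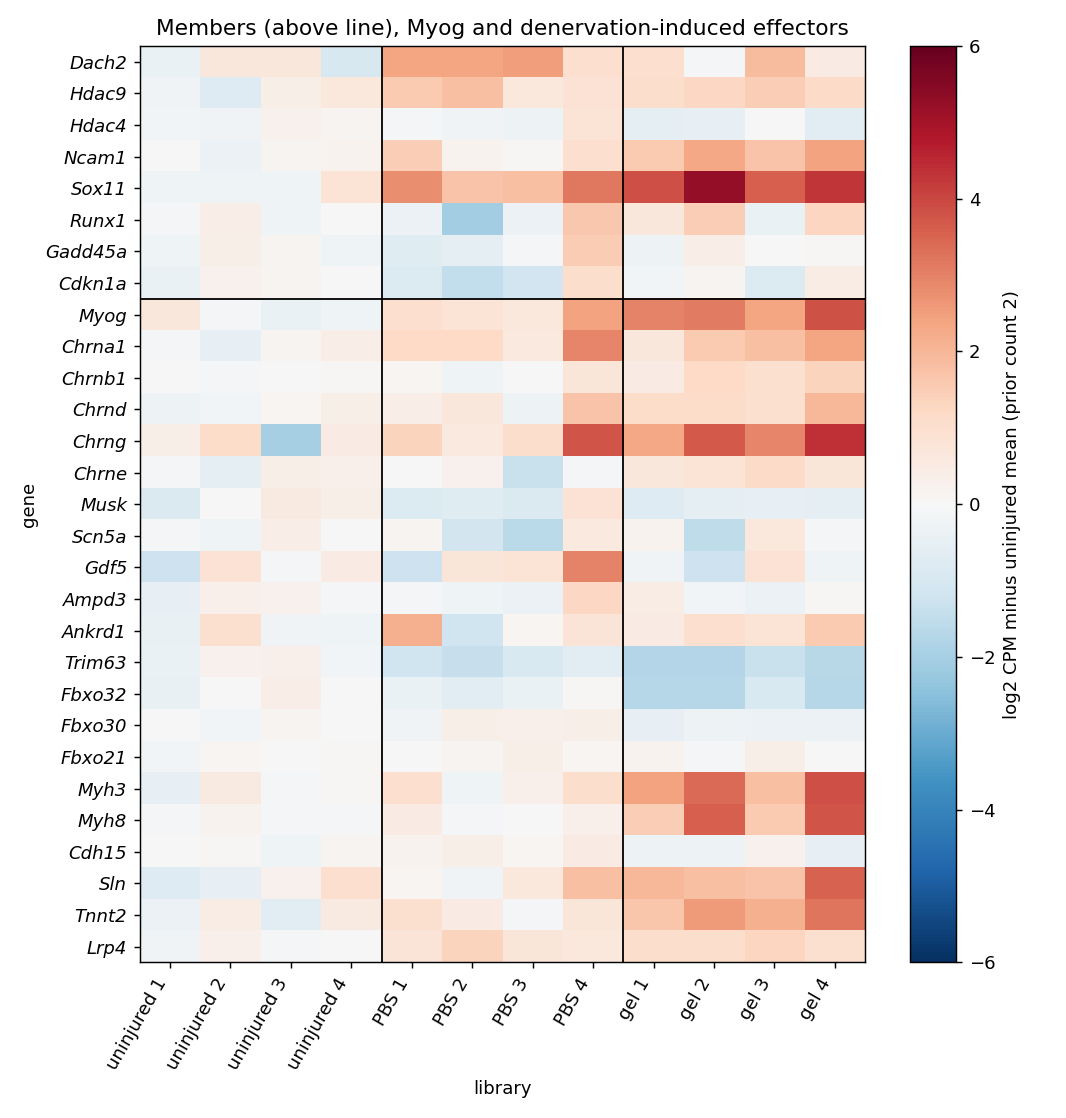
Log2 CPM of the 8 genes and of effector genes in each library, relative to the mean of the uninjured libraries, with Myog and the effectors below the line (colour scale, log2 units; columns are libraries, rows genes). PBS 4 shows the high values of Runx1, Gadd45a, Cdkn1a, Chrna1 and Chrng that PBS 1 to 3 do not.

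The comparison of PBS-treated with uninjured muscle also carried a fall of glucocorticoid-induced genes, which moved with the rises of Dach2, Hdac9 and Sox11. Of 14 such genes 10 fell and none rose, at a median of -1.24, beside 3.39% of all tested genes called lower and 2.79% higher. In gel over uninjured muscle 13 of the 14 fell and none rose, at a median of -1.41, beside 11.1% lower and 14.5% higher. Their summed level was 1472 to 2501 CPM in uninjured, 659.3 to 748.5 in PBS and 654.9 to 929.9 in gel libraries. Fkbp5, which encodes a glucocorticoid receptor co-chaperone, fell from 84.8 to 11.4 CPM (log2 -2.89 ± 0.25, adjusted p = 3.99e-05), and Zbtb16 from 153.6 to 35.2 CPM (log2 -2.13 ± 0.17, adjusted p = 1.08e-05). In gel over PBS muscle 3 rose and 3 fell (2 and 1 without PBS 4), at a median of -0.02. These counts stand near the 16.6% of all tested genes called higher and 13.2% called lower there. Mt1 and Mt2 were among those that rose (log2 1.88 and 2.93). Klf15 and Zbtb16 were among those that fell (log2 -0.90 and -0.55), Zbtb16 not without PBS 4 (adjusted p = 0.0588). The uninjured libraries came from other animals, and the part of the state of the animals in the PBS results was not tested. Of the 15 macrophage markers 0 passed in PBS against uninjured muscle by edgeR or limma voom and 1 was lower by DESeq2, with 1 lower at an unadjusted p below 0.05 in edgeR and a median of -0.51.

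PBS 4 departed from the other PBS libraries in most of the 8 genes. It was the highest PBS library for Hdac4, Runx1, Gadd45a, Cdkn1a and Sox11, that is 62.5% of the members, and the lowest for Dach2, while it was the highest for 26.1% and the lowest for 25.7% of all tested genes. Among 12314 genes with a mean of at least 1 CPM, ranked by log2 CPM of PBS 4 minus the mean of PBS 1 to 3, Runx1 was 9th at 2.56, Cdkn1a 15th at 2.20 and Gadd45a 22nd at 1.98. Sox11 was 160th at 1.08, Hdac4 193rd at 1.02, and Dach2 12211th at -1.40.

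Effector genes shared this pattern. PBS 4 was the highest PBS library for 12 of the 19 effectors, or 63.2%, with a median log2 excess of 0.56 beside 0.01 for all tested genes, and Chrng (2.79), Chrna1 (1.95), Musk (1.66) and Ampd3 (1.47) had excesses of that kind, as did Myog (1.60). Averaged over the effectors relative to uninjured muscle, PBS 4 stood at 0.92 on the log2 scale, the other PBS libraries at -0.08 to 0.33 and the gel libraries at 0.53 to 1.21. The gel library of the same animal, gel 4, held 14.6 CPM of Runx1 and 17.5 of Gadd45a, within the range of the other gel libraries. It was the highest gel library for the effector mean (1.21), Cdkn1a (46.8 CPM), Myog (48.8 CPM), Chrna1 (52.4 CPM) and Chrng (8.99 CPM). The macrophage sum of PBS 4 was 60.6 CPM, inside the PBS range of 30.1 to 63.3. Its Schwann cell sum, 22.0 CPM, was the lowest of the PBS libraries, and it was the lowest PBS library for 5 of 10 Schwann markers and the highest for none. What set PBS 4 apart is not recorded in the labels, and the part of nerve content in these values was not tested.

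The genes whose log2 CPM followed each of the 8 most closely over the 12 libraries were found among tested genes with a mean of at least 1 CPM, by Pearson correlation, as a description with no test. The libraries share the group differences and the departures of gel 3 and PBS 4, and the values describe that shared variation. Ncam1 was followed by Map1b (0.982), which encodes a microtubule-associated protein of growing neurites, Sfxn3 (0.973) and Adamts20 (0.968). Sox11 was followed by Exoc3l4 (0.963) and Mymk (0.954), which encodes the myoblast fusion protein myomaker. Mymk measured 0.406 to 1.36 CPM in uninjured, 1.26 to 9.48 in PBS and 16.7 to 28.2 in gel libraries, with no overlap of gel with the other groups. Runx1 was followed by Relb (0.962), an NF-kappaB subunit gene, Trim28 (0.924) and Arfgap3 (0.909).

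Cdkn1a and Gadd45a shared a follower, Zbtb26 (0.913 with Cdkn1a and 0.848 with Gadd45a). Cdkn1a was further followed by Atp6v0d1 (0.890) and Cyren (0.866), and Gadd45a by 0610010K14Rik (0.916) and U2af1 (0.890). Dach2 was followed by Kdm8 (0.931) and Prkg1 (0.910), Hdac4 by 4931413K12Rik (0.917), Clcn4 (0.906) and Ksr1 (0.896), and Hdac9 by Cenpc1 (0.913), 4921531C22Rik (0.895) and Arhgef4 (0.890).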

How the data were processed

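The deposited files hold raw read counts per gene for 12 whole-muscle RNA-seq libraries of mouse tibialis anterior, 4 per group. Per the labels, BGI extracted the RNA and made the libraries; per the submitters' processing notes, the authors used STAR, edgeR and build mm39, without versions. The labels name no counting program, annotation or strand setting, so overlapping antisense genes could not be told apart. The members and lists were chosen with earlier results of these data known.

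Counts were tested as deposited with edgeR 4.0.16 in R 4.3.3: genes passing filterByExpr, trimmed-mean scaling, a robust quasi-likelihood fit of all 12 libraries with 1 coefficient per group (9 residual degrees of freedom), and Benjamini-Hochberg adjustment over 13499 genes at 0.05. The SE is the log2 fold change over the square root of F. CPM is scaled, and its log2 has a prior count of 2. Named genes were all members, up to 4 passing genes of each list by smallest p, 5 fixed genes (Myog, Chrna1, Chrng, Trim63, Fbxo32) and the 3 closest correlates of each member, of which a few are not reported here; other list genes and the genes of PBS 4 were named after their values were seen. Deposited names give gel and PBS libraries of 1 number the same animal, left and right; their deviations from group means correlated at -0.06 to 0.31. On simulated counts for gel minus PBS over 13499 genes, 64.3% of 2-fold and 94.9% of 4-fold changes were recovered in 3 runs, with 21 false calls. The simulated spread followed the trend over all genes, without a gene's own excess spread or a departing library. These rates therefore do not hold for genes as variable as Runx1, Gadd45a and Cdkn1a. Low counts of 1 to 20 were even in 74.9% to 85.9% of cases per library, against 51.7% to 54.9% of counts above 1000. Alternatives were other scaling, DESeq2 1.42.0, limma 3.58.1 voom, no filter, 2 groups alone, the animal block, each library left out and, added after seeing the data, halved counts and the lists without PBS 4 or gel 3. The deposited names also give each uninjured library its own animal number. Sequences are of build GRCm38.p6, not the build of the files.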

Additional observations from a re-analysis of the deposited data

Results flagged for a closer look

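Among 24 sets of 4 libraries, 8 genes in 3 groups, 5 held a library whose gap to its nearest neighbour exceeded 0.829 of the whole range, the critical value of Dixon's test at 95%. For independent, normally distributed values chance alone flags about 1 such set in 20. The sets here share libraries, and genes such as Cdkn1a and Gadd45a vary together (correlation 0.84 with group means removed). The flags are therefore not independent, and that rate is no measure of chance for them. In 4 of the 5 the library was PBS 4. Dach2 was low there at 1.56 CPM against 4.13 to 4.58 in the other PBS libraries (gap 0.852 of the range). Hdac4 was high at 53.2 CPM against 24.4 to 27.6 (0.890), Gadd45a at 48.0 CPM against 10.2 to 15.7 (0.855), and Cdkn1a at 71.8 CPM against 12.5 to 19.4 (0.883). The remaining one was Sox11 in uninjured 4, at 0.127 CPM from 2 counts where the other uninjured libraries had 0. With the others at 0, any count in this library would have been flagged.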

How the results depend on the processing

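With limma voom 0 of the 8 genes were called in PBS over uninjured muscle, against 3 (4 had an unadjusted p below 0.05 in edgeR, and their adjusted p with voom was 0.0508 to 0.0538 for the 3 called genes). Leaving out 1 library gave 1 to 4 in PBS over uninjured, 1 to 5 in gel over PBS and 2 to 3 in gel over uninjured muscle. Over all genes, PBS over uninjured gave 833 calls, 1415 with DESeq2 and 2339 from these 2 groups alone (1192 higher, 1147 lower); gel over PBS gave 4022, and 2559 from the 2 groups alone. Leaving out 1 library gave 378 (without uninjured 4) to 1693 (without gel 3), 2456 (without gel 4) to 5962 (without gel 3), and, for gel over uninjured muscle with 3449 calls, 2275 (without gel 4) to 5341 (without gel 3). Signs turned for Runx1 in PBS minus uninjured (-0.34 with voom) and Gadd45a in gel minus PBS (0.06 with voom, 0.02 with the replicate block). Over fits without 1 library, log2 fold changes of genes that were not called spanned 0: in PBS minus uninjured Hdac4 (-0.22 to 0.23), Runx1 (-0.76 to 0.63), Gadd45a (-0.47 to 0.54) and Cdkn1a (-1.16 to 0.01), in gel minus PBS Hdac9 (-0.26 to 0.13), Gadd45a (-0.51 to 0.49) and Cdkn1a (-0.07 to 1.08), and in gel minus uninjured Gadd45a (-0.10 to 0.16) and Cdkn1a (-0.27 to 0.13). The replicate block, pairing legs of 1 animal, added the call of Dach2 in gel minus PBS (log2 -1.28, adjusted p = 0.0403), as did DESeq2 (0.0389), voom (0.0343) and halved counts (0.0444), and changed no other call among the 8. Sox11 could not be tested from the PBS and uninjured groups alone, where it fails the filter. Of the single-gene values, 394 kept direction and call, 18 changed sign, 10 gained and 17 lost a call; the cause was not tested. Depth limits Sox11 and Dach2, whose uninjured libraries sum to 2 and 52 counts.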

Other observations

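The genes with the largest excess in PBS 4 over PBS 1 to 3, chosen by that value, included the keratin gene Krt18 (43.6 CPM against 0.326 to 3.09; 3.54 to 14.9 in gel libraries) and its partner Krt8 (7.20 CPM against 0.296 to 0.458). Igfn1, which encodes a Z-disc protein, measured 188.4 CPM against 21.5 to 29.3, and Rrad, a small GTPase gene, 26.4 CPM against 2.07 to 6.52. Among the genes lowest in PBS 4 were the slow-type myosin genes Myh7b (0.360 CPM against 4.12 to 10.3) and Myh7 (0.360 CPM against 2.17 to 13.2), and Kif1a, a neuronal kinesin gene, at 0 CPM against 0.916 to 2.72.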
